A study of Mus musculus with 17 samples.

Results

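The 36 genes described here are enzymes and transporters of glycolysis together with genes of the hypoxia response. They were taken as the rows of both expression tables whose symbol is on a fixed list, and all 36 were found among the 24327 genes kept. They cover 24 glycolytic genes (2 glucose transporters, 4 genes of glucose phosphorylation and isomerisation, 5 of the phosphofructokinase step, 9 from aldolase to pyruvate kinase and 4 that decide the fate of pyruvate and lactate), 4 subunits and oxygen sensors of the hypoxia-inducible factors, and 8 other hypoxia response genes. All 36 were above 0 in every library and all passed the filter on low values in both experiments.

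The 17 bulk RNA-seq libraries come from mouse lung, in 5 genotype groups and 2 experiments. In the first experiment, 3 libraries labelled LysMcre;Nlrp3A350V, called the Nlrp3 mutant here, were set against 3 labelled Control. In the second, 4 libraries labelled LysMcre;Nlrp3A350V;Il181r-/- (the Il18r1 null mutant) and 3 labelled LysMcre;Nlrp3A350V;Il181r+/- (the Il18r1 het mutant) were set against 4 of an Il18r1 control. All 3 mutant groups carried the same LysMcre driver, which acts in myeloid cells, and the same allele of Nlrp3, the sensor of an inflammasome, which the allele's missense change makes overactive. Il18r1 encodes the ligand-binding chain of the IL-18 receptor. What alleles both control groups carried, and the age and sex of the mice, are not given in the labels. Nor do they say that the libraries of 1 group are different animals. The p-values below therefore reflect the scatter among these libraries, part of which may be technical. By its title, the series concerns how an overactive inflammasome acts on the forming gas exchange surface, and the place of IL-18 and TNF in it.

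Glycolysis converts glucose to pyruvate in the cytoplasm, and lactate dehydrogenase and a lactate exporter carry the flux on where mitochondria do not take it up. Neutrophils draw most of their energy from it. When oxygen falls, prolyl hydroxylases of the Egln family stop marking HIF alpha subunits for degradation, and the stabilised factors, HIF-1 alpha from Hif1a and HIF-2 alpha from Epas1, switch on genes of glucose uptake, glycolysis, mitochondrial clearance and collagen modification. HIF activity is set largely at the level of protein stability, so the RNA of a HIF subunit is not a measure of it, and Epas1 is a well-known gene of lung endothelium.

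Values are FPKM, a level scaled to transcript length and library size, so they are per length and can be set side by side between genes. Library depth relative to the first library of its table was 0.788 to 1 among the 6 libraries of the Nlrp3 experiment and 0.750 to 1.15 among the 11 of the Il18r1 experiment, with 13147 to 13450 genes at 1 FPKM or more. Il18r1 itself measured 6.98, 9.00, 8.59 and 8.46 FPKM in the Il18r1 null mutant and 30.7, 29.9 and 31.2 FPKM in the Il18r1 het mutant, against 15.0, 14.0, 14.8 and 13.4 FPKM in the Il18r1 control. The null libraries were thus the lowest but not at 0, and which exons the allele removes was not stated. In the first experiment Il18r1 measured 40.0 to 43.4 FPKM in the Nlrp3 mutant against 17.9 to 22.2 FPKM in Control. Nlrp3 measured 2.73 to 3.14 FPKM in the Nlrp3 mutant against 0.973 to 1.39 FPKM in Control. In the second experiment Nlrp3 measured 3.04 to 4.00 FPKM in the null mutant and 3.06 to 4.08 FPKM in the het mutant. It measured 0.709 to 2.30 FPKM in the Il18r1 control. The level of Nlrp3 does not test a missense allele. The female-specific RNA Xist was above 1 FPKM in all 3 Nlrp3 mutant libraries, all 3 Il18r1 het mutant libraries and null libraries 2 and 4, and in no library of either control group, so sex and genotype cannot be told apart in the first experiment or in het against control.

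Markers of several cell types moved with the groups and are given here as measured facts. The summed level of 13 neutrophil markers found of 14 listed was 10089 to 16446 FPKM in the Nlrp3 mutant, against 436 to 1508 FPKM in Control. In the second experiment the sum was 2358 to 3368 FPKM in the Il18r1 null mutant and 11870 to 22737 FPKM in the Il18r1 het mutant, against 295 to 418 FPKM in the Il18r1 control. No group of libraries overlapped another of its experiment, and none of these markers was at 0 throughout a group. Summed alveolar macrophage markers (11 of 11 found) measured 805 to 1358 FPKM in the Nlrp3 mutant against 243 to 340 FPKM in Control, and in the second experiment 217 to 247 FPKM in the null mutant and 651 to 915 FPKM in the het mutant, against 212 to 250 FPKM in its control. Fibroblast and smooth muscle markers (8 of 8) ran the other way, at 469 to 550 FPKM in the Nlrp3 mutant against 1247 to 1360 FPKM in Control, and at 1196 to 1348 FPKM in the null mutant and 540 to 644 FPKM in the het mutant, against 1262 to 1317 FPKM in its control. Interstitial macrophage and monocyte markers (10 of 10) summed to 459 to 543 FPKM in the Nlrp3 mutant against 208 to 248 FPKM in Control, and to 285 to 394 FPKM in the null mutant and 731 to 869 FPKM in the het mutant, against 228 to 244 FPKM in its control. Airway markers (4 of 4) summed to 24389 to 25864 FPKM in the Nlrp3 mutant against 10597 to 15977 FPKM in Control, and to 11171 to 13743 FPKM in the null mutant and 25616 to 26678 FPKM in the het mutant, against 13330 to 15686 FPKM in its control. The sums of type 1 (8 of 8) and type 2 (9 of 9) alveolar cell markers and of platelet markers (5 of 5) were likewise higher, with no overlap, in the Nlrp3 mutant and the het mutant than in their controls. Skeletal and heart muscle markers (7 of 7) summed to 341 to 368 FPKM in the Nlrp3 mutant against 207 to 291 FPKM in Control. Their sum was 204 to 310 FPKM in the null mutant and 337 to 428 FPKM in the het mutant, against 102 to 335 FPKM in its control. Of these genes, 4 were called higher and 1 (Mb) lower in the Nlrp3 mutant, and likewise in het against control. In bulk lung, more cells of a type and more RNA per cell cannot be told apart, and the part of cell composition in the results below was not tested.

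In the Nlrp3 mutant, the glucose transporters Slc2a1 and Slc2a3, the hexokinases Hk2 and Hk3, the aldolase Aldoa, the lactate dehydrogenase subunit Ldhb and the lactate exporter Slc16a3 were higher than in Control, as were the hypoxia genes Bnip3, Ndrg1 and P4ha2, while the oxygen sensor Egln3 was lower. Of the 36 genes, 19 were called higher and 3 lower (limma on log2(FPKM + 1), Benjamini-Hochberg adjusted p under 0.05), against a background in which 28% of all 13549 genes tested were called higher and 27.6% lower. The median log2 fold change of the 36 genes was 0.24, beside 0.0023 for all genes. In the Il18r1 het mutant against the Il18r1 control, 20 of 36 were called higher and 2 lower, where the background was 27.3% higher and 28.9% lower of 13724 genes, and the median was 0.34, beside -0.017 for all genes. Of all genes, 55.6% were called in the first of these comparisons and 56.2% in the second, so a call by itself says little about a member.

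In the Il18r1 null mutant against the Il18r1 control, 4 genes were called higher (Slc2a1, Slc2a3, Hk3 and Slc16a3) and 0 lower, where the background was 1.87% higher and 0.102% lower. The median was 0.065, beside -0.0079 for all genes, 9 members had an unadjusted p under 0.05, as did 1410 of all 13724 genes, and the authors' deposited table called 8 higher and 0 lower, where it called 3.74% of its genes either way. In the Il18r1 null mutant against the Il18r1 het mutant, 1 gene was called higher (Egln3) and 20 lower, where the background was 26.8% higher and 26.5% lower (53.3% in all), and the median was -0.30, beside 0.0066 for all genes. The authors' deposited table called 2 higher and 18 lower there, and 44.1% of its genes, and for het against control 23 higher and 2 lower, and 46.2%. The comparisons of the second experiment share libraries, so their counts are not independent of each other. Scaling every library to an equal total FPKM moved the median of all genes by -0.15 in the Nlrp3 mutant comparison, -0.16 in het against control and 0.19 in null against het, and the share of all calls that were higher went to 29.9%, 27.7% and 77.4% where it was 50.3%, 48.6% and 50.3%. Under that scaling 17 members were called higher and 4 lower in the Nlrp3 mutant, beside 2391 and 5613 of all 13552 genes tested. In het against control 17 were higher and 5 lower, beside 2484 and 6482 of 13727 genes. In null against het 5 were higher and 13 lower, beside 6961 and 2037 of 13727 genes. The higher calls lost were P4ha1 and Kdm3a in the Nlrp3 mutant, and Tpi1, Pgk1 and Higd1a in het against control. The lower calls lost in null against het were Pfkfb4, Tpi1, Pgk1, Eno1, Pdk1, Ndrg1 and Higd1a. The lower calls gained were Hk1 in the Nlrp3 mutant, and Hif1a, Egln1 and Kdm3a in het against control. The higher calls gained in null against het were Pfkm, Hif1a, Egln1 and Kdm3a. Without Control replicate 2 or without Nlrp3 mutant replicate 3 the lower calls in the Nlrp3 mutant were 1, without Il18r1 control replicate 3 those in het against control were 1, and the higher calls in null against het were 2 without het replicate 1 or 2 or null replicate 1 or 4.

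Counted by overlap of the libraries alone, 20 members were higher in every Nlrp3 mutant library than in every Control library and 3 were lower, where 32.2% and 32% of all genes were, 64.2% together. For het against control the counts were 22 and 1, with 27.4% and 29.1% of all genes, 56.5% together. For null against control they were 8 and 0, with 5.06% and 3.4%, 8.45% together. For null against het they were 1 higher and 19 lower, with 26.2% and 26%, 52.2% together. Members that were called with a log2 fold change of at least 0.5 in size numbered 15 in the Nlrp3 mutant, beside 25.4% of all genes, and 15 for het against control, beside 23%. For null against control they numbered 3, beside 1.6%, and for null against het 12, beside 20.6%.

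**Figure D1:**
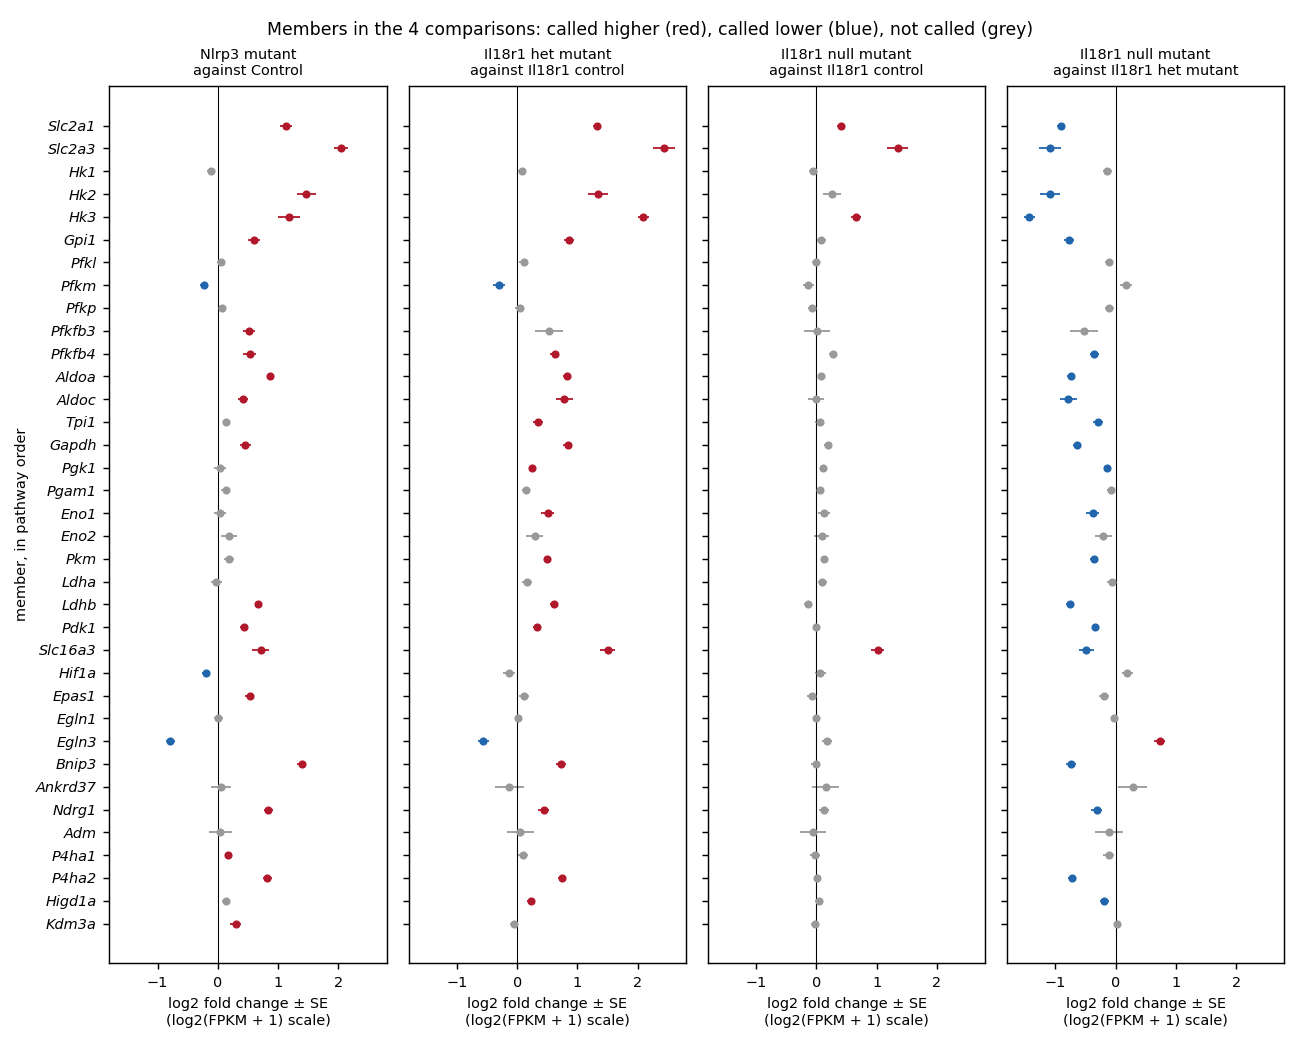
Log2 fold change with its standard error (x axis, log2(FPKM + 1) scale) of the 36 genes, in pathway order down the page, in the 4 comparisons. Red points were called higher, blue points lower and grey points were not called; 19, 20, 4 and 1 genes are red from left to right.

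Both glucose transporters were called higher in every mutant group. Slc2a3 encodes GLUT3, a high-affinity glucose transporter of neurons and leukocytes (chr6:122727809-122801640, minus strand, GRCm38), and had the largest log2 fold change of the 36 genes on the log2(FPKM + 1) scale in each of the 3 mutant groups against its control. As a ratio of mean FPKM, Hk3 was ahead of it in het against control, at 7.69 beside 6.47 for Slc2a3. It measured 26.3, 21.6 and 24.5 FPKM in the Nlrp3 mutant, against 4.50, 4.71 and 6.21 FPKM in Control. In the second experiment it measured 12.8, 13.6, 15.6 and 9.64 FPKM in the null mutant and 28.3, 36.1 and 21.9 FPKM in the het mutant, against 4.83, 4.34, 3.29 and 5.33 FPKM in the control. No group overlapped another within an experiment, and the null libraries lay between the other groups. The log2 fold change was 2.04 ± 0.12 (SE) in the Nlrp3 mutant (adjusted p = 1.4e-05) and 2.44 ± 0.18 in het against control (adjusted p = 6.04e-07). It was 1.35 ± 0.17 in null against control (adjusted p = 0.000755) and -1.09 ± 0.18 in null against het (adjusted p = 0.000351). Het replicate 2, which had the highest Slc2a3 level, also had the highest neutrophil marker sum, 22737 FPKM, and het replicate 3 the lowest of both, at 11870 FPKM for the sum. The Nlrp3 mutant libraries had the same order in both, with sums of 16446, 10089 and 14030 FPKM in replicates 1, 2 and 3. Null replicate 3 was highest and null replicate 4 lowest in both, at 3368 and 2358 FPKM for the sum. Control replicate 3 was highest in both, at 1508 FPKM for the sum. Replicates 1 and 2 of the null mutant and of Control were in opposite order. The Il18r1 control ran otherwise: its replicate 4 had the highest Slc2a3 level, 5.33 FPKM, and the lowest neutrophil marker sum, 295 FPKM. The part of neutrophils in the Slc2a3 level was not tested.

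Slc2a1 encodes GLUT1, the widespread basal glucose transporter and a classic HIF-1 target (chr4:119108711-119137983, plus strand). It measured 18.3, 19.5 and 19.7 FPKM in the Nlrp3 mutant, against 7.64, 7.26 and 9.83 FPKM in Control. It measured 12.6, 12.4, 12.6 and 10.8 FPKM in the null mutant and 22.6, 25.3 and 22.8 FPKM in the het mutant, against 9.41, 8.41, 8.64 and 8.85 FPKM in the Il18r1 control. The groups again kept apart, with the null libraries closer to the control than to the het mutant. Its log2 fold changes were 1.13 ± 0.10 in the Nlrp3 mutant (adjusted p = 8.11e-05) and 1.32 ± 0.07 in het against control (adjusted p = 3.16e-08). They were 0.41 ± 0.06 in null against control (adjusted p = 0.00273) and -0.91 ± 0.07 in null against het (adjusted p = 9.27e-07).

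The hexokinases divided by isoform: Hk2 and Hk3 were higher in the Nlrp3 mutant and the het mutant, and Hk1, the housekeeping isoform, was not called by the main limma fit in any of the 4 comparisons. Hk2, the inducible isoform that binds mitochondria (chr6:82725025-82774454, minus strand), measured 11.7, 7.03 and 9.24 FPKM in the Nlrp3 mutant, against 2.72, 2.51 and 2.79 FPKM in Control. It measured 2.74, 3.26, 3.77 and 2.78 FPKM in the null mutant and 5.26, 10.3 and 8.46 FPKM in the het mutant, against 2.39, 2.23, 2.50 and 2.68 FPKM in the control. Every null library was above every control library, but only by a small margin. The log2 fold change of Hk2 was 1.47 ± 0.15 in the Nlrp3 mutant (adjusted p = 0.00015) and 1.34 ± 0.16 in het against control (adjusted p = 2.79e-05). In null against het it was -1.09 ± 0.16 (adjusted p = 0.000161). In null against control it was 0.26 ± 0.15 (adjusted p = 0.649), and the authors' deposited table gave an adjusted p of 0.0491.

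The 250 bases before the start of Hk2 are shown as an example of an induced member with more than 1 copy of the core letters that HIF binding sites hold. Capitals mark ACGTG or GCGTG on either strand (CACGT and CACGC when read on the printed strand), and the sequence comes from RefSeq on GRCm38.p6, chr6:82774455-82774704, minus strand, printed 5′ to 3′ towards the start.
Hk2: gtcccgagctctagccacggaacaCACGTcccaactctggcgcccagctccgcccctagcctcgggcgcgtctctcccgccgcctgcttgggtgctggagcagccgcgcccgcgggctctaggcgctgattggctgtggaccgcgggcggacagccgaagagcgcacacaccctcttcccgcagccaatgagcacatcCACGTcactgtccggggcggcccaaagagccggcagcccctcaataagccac

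Hk3, the hexokinase of myeloid cells (chr13:55005985-55021385, minus strand), measured 5.33, 3.00 and 4.38 FPKM in the Nlrp3 mutant, against 1.32, 0.926 and 1.65 FPKM in Control. It measured 2.33, 2.19, 1.91 and 1.95 FPKM in the null mutant and 6.63, 8.08 and 7.35 FPKM in the het mutant, against 0.811 to 1.13 FPKM in the control. The null libraries sat above the control and far below the het mutant, with no overlap. The log2 fold changes were 1.18 ± 0.19 in the Nlrp3 mutant (adjusted p = 0.00115) and 2.09 ± 0.09 in het against control (adjusted p = 1.2e-08). They were 0.66 ± 0.08 in null against control (adjusted p = 0.000786) and -1.43 ± 0.09 in null against het (adjusted p = 3.33e-07). Hk1 averaged 16.4 ± 1.36 FPKM in the Nlrp3 mutant and 17.8 ± 0.628 FPKM in Control (SD, n = 3 each), a log2 fold change of -0.11 ± 0.07 (adjusted p = 0.197) that was called lower without Nlrp3 mutant replicate 1 (-0.18, adjusted p = 0.0458). It was also called lower there under equal total FPKM (-0.27, adjusted p = 0.00994) and with robust limma fitting with weights per library (-0.19, adjusted p = 0.0095).

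Gpi1, which isomerises glucose 6-phosphate to fructose 6-phosphate (chr7:34201330-34230336, minus strand), measured 79.6, 61.5 and 68.4 FPKM in the Nlrp3 mutant, against 42.6, 45.2 and 48.6 FPKM in Control. It measured 64.8, 58.9, 59.5 and 54.7 FPKM in the null mutant and 97.1, 119 and 92.3 FPKM in the het mutant, against 60.9, 51.9, 54.5 and 57.2 FPKM in the control. Null and control libraries overlapped, and the het libraries stood above both. On the log2 scale the difference was 0.60 ± 0.10 in the Nlrp3 mutant (adjusted p = 0.00117) and 0.86 ± 0.09 in het against control (adjusted p = 7.29e-06). In null against het it was -0.77 ± 0.09 (adjusted p = 2.11e-05).

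At the phosphofructokinase step both regulatory enzymes were called higher in the Nlrp3 mutant, and of the catalytic subunits limma called only Pfkm in any comparison. Pfkl and Pfkp, the liver and platelet subunits, had log2 fold changes between -0.11 and 0.11, and the authors' deposited table called Pfkl higher in het against control (0.12, adjusted p = 0.0430). Pfkm, the muscle subunit, averaged 9.57 ± 0.282 FPKM in the Nlrp3 mutant and 11.4 ± 0.484 FPKM in Control (SD, n = 3 each), a log2 fold change of -0.23 ± 0.06 (adjusted p = 0.0135), and was also called lower in het against control (-0.30 ± 0.10, adjusted p = 0.0228). Neither call held in all fits with a library left out: the adjusted p was 0.0592 without Control replicate 2 and 0.0574 without Nlrp3 mutant replicate 3 in the first experiment, and 0.0628 without Il18r1 control replicate 3 and 0.116 without het replicate 2 in the second. Without het replicate 1, Pfkm was called higher in null against het (0.26, adjusted p = 0.0446), as it was with all libraries under equal total FPKM (0.35, adjusted p = 0.0108).

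Pfkfb4, which makes the phosphofructokinase activator fructose 2,6-bisphosphate (chr9:108991778-109032228, plus strand), measured 22.0, 17.0 and 19.2 FPKM in the Nlrp3 mutant, against 13.2, 11.7 and 14.5 FPKM in Control. It measured 17.5, 16.9, 14.6 and 16.3 FPKM in the null mutant and 19.4, 23.7 and 20.5 FPKM in the het mutant, against 13.6, 12.7, 13.7 and 13.2 FPKM in the control. Every null library was above the control libraries and below the het libraries. Its log2 fold change was 0.53 ± 0.11 in the Nlrp3 mutant (adjusted p = 0.00404) and 0.63 ± 0.07 in het against control (adjusted p = 2.29e-05). In null against het it was -0.36 ± 0.07 (adjusted p = 0.00166). In null against control it was 0.27 ± 0.07 (adjusted p = 0.0802), and it was called higher without null replicate 3 (0.32, adjusted p = 0.0388) and in the authors' deposited table (0.31, adjusted p = 1.94e-05). It was also called higher there with robust limma fitting (0.26, adjusted p = 0.0256), under equal total FPKM (0.31, adjusted p = 0.0286) and with only the 2 groups fitted (0.27, adjusted p = 0.0377).

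Pfkfb3, the isoform with the strongest kinase activity (chr2:11471433-11554077, minus strand), measured 24.9, 18.5 and 20.6 FPKM in the Nlrp3 mutant, against 14.9, 13.8 and 15.0 FPKM in Control, with no overlap and a log2 fold change of 0.51 ± 0.10 (adjusted p = 0.00353). It measured 16.6, 23.7, 20.7 and 17.8 FPKM in the null mutant and 17.5, 29.2 and 44.6 FPKM in the het mutant, against 18.9, 18.9, 17.8 and 22.4 FPKM in the control. The 3 het libraries spread widely, and replicate 1 lay below all 4 control libraries. Het against control was not called (0.53 ± 0.23, adjusted p = 0.0697), but it was without het replicate 1 (0.86, adjusted p = 0.00113), as was null against het (-0.85, adjusted p = 0.00133). Robust limma fitting with weights per library also called it higher in het against control (0.60, adjusted p = 0.0346).

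Of the 9 genes from aldolase to pyruvate kinase, 3 were called higher in the Nlrp3 mutant (Aldoa, Aldoc and Gapdh), where 28% of all genes were. That count is near the share of all genes and is no result about this step. In het against control 7 were called higher, where 27.3% of all genes were, and Tpi1, Pgk1, Eno1 and Pkm joined the first 3. By the main limma fit none of the 9 was called in null against control, where 1.97% of all genes were, but the authors' deposited table called Gapdh (adjusted p = 0.0124) and Pkm (adjusted p = 0.0366) higher there. Under equal total FPKM limma also called Gapdh higher there (0.24, adjusted p = 0.0472). In null against het, 7 were called lower, where 26.5% of all genes were. Aldoa, the main aldolase (chr7:126795234-126800751, minus strand), measured 248, 239 and 238 FPKM in the Nlrp3 mutant, against 133, 133 and 134 FPKM in Control. It measured 158, 159.9, 173 and 148 FPKM in the null mutant and 257, 278 and 270.5 FPKM in the het mutant, against 151, 142, 166 and 146 FPKM in the control. Null and control libraries mixed, while both other mutant groups stood clear of their controls. This gave a log2 fold change of 0.86 ± 0.05 in the Nlrp3 mutant (adjusted p = 1.17e-05) and 0.83 ± 0.06 in het against control (adjusted p = 8.23e-07). It was 0.08 ± 0.06 in null against control (adjusted p = 0.746) and -0.75 ± 0.06 in null against het (adjusted p = 2.99e-06).

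Gapdh, the dehydrogenase that makes glycolytic NADH and a frequent reference gene (chr6:125161715-125166467, minus strand), measured 328, 254 and 288 FPKM in the Nlrp3 mutant, against 220.4, 199.6 and 210.4 FPKM in Control. It measured 257, 259.9, 271 and 254 FPKM in the null mutant and 402, 454 and 371 FPKM in the het mutant, against 233, 213, 241 and 225 FPKM in the control. All groups kept apart within their experiment. Its log2 fold change was 0.46 ± 0.09 in the Nlrp3 mutant (adjusted p = 0.00433) and 0.84 ± 0.07 in het against control (adjusted p = 1.11e-06). In null against het it was -0.64 ± 0.07 (adjusted p = 1.17e-05), and 0.19 ± 0.06 in null against control (adjusted p = 0.223). Aldoc, the brain aldolase, was a minor form at 2.38 ± 0.135 FPKM in the Nlrp3 mutant and 1.53 ± 0.0221 FPKM in Control (SD, n = 3 each), and was called higher there (0.42 ± 0.08, adjusted p = 0.00389) and in het against control (0.78 ± 0.14, adjusted p = 0.000526).

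Pkm, pyruvate kinase, averaged 213 ± 8.97 FPKM in the null mutant (n = 4) and 275 ± 20.7 FPKM in the het mutant (n = 3), against 195 ± 3.95 FPKM in the control (SD, n = 4), and was called higher in het against control (0.50 ± 0.06, adjusted p = 1.52e-05). Its log2 fold change in the Nlrp3 mutant was 0.18 ± 0.09 (adjusted p = 0.115), and it was called there only without Nlrp3 mutant replicate 2 among the fits with a library left out (0.27, adjusted p = 0.0184). With robust limma fitting with weights per library, Pkm was called higher there too (0.18, adjusted p = 0.0158). Tpi1, triose phosphate isomerase, was called higher in het against control (0.35 ± 0.08, adjusted p = 0.0028) and not in the Nlrp3 mutant (0.14 ± 0.06, adjusted p = 0.0833). Pgk1, the X-linked phosphoglycerate kinase, was called higher in het against control (0.25 ± 0.05, adjusted p = 0.00163) and lower in null against het (-0.14 ± 0.05, adjusted p = 0.0425). The second of these calls was lost, with an adjusted p of 0.0765 to 0.155, without het replicate 1 or 2 or null replicate 1, 2 or 4, and with a sex term (0.0832), with only the null libraries that have Xist (0.0802), with a replicate block (0.114) and in the authors' deposited table (0.0940). Its direction turned under equal total FPKM (0.061). Without Nlrp3 mutant replicate 2, Pgk1 (0.16, adjusted p = 0.0353) and the mutase Pgam1 (0.20, adjusted p = 0.0436) were called higher in the first experiment. Pgam1 and Eno2, the neuronal enolase, were not called by the main limma fit in any of the 4 comparisons. The robust limma fit called Pgam1 higher in the Nlrp3 mutant (0.23, adjusted p = 0.00432), and the authors' deposited table called it higher in het against control (0.23, adjusted p = 0.00485).

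Eno1, the widespread enolase (chr4:150236721-150248879, plus strand), measured 79.7, 61.5 and 66.6 FPKM in the Nlrp3 mutant, against 71.3, 65.4 and 64.7 FPKM in Control. It measured 51.5, 48.7, 55.6 and 40.9 FPKM in the null mutant and 58.2, 75.3 and 59.2 FPKM in the het mutant, against 42.4, 46.3, 43.9 and 45.9 FPKM in the control. The groups overlapped in the Nlrp3 experiment, and in the Il18r1 experiment the het libraries stood above the rest. The log2 fold change was 0.04 ± 0.09 in the Nlrp3 mutant (adjusted p = 0.76) and 0.51 ± 0.10 in het against control (adjusted p = 0.00137). In null against het it was -0.38 ± 0.10 (adjusted p = 0.00895). These values are uncertain: the genome holds a near-identical copy, Eno1b, listed at 0 to 0.246 FPKM, and the authors' deposited tables give Eno1 a mean normalized count of only 0.316, 0.152 and 0.439 with no adjusted p, although it lies between 40.9 and 79.7 FPKM in every library of the FPKM tables. How shared reads were counted was not stated.

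**Figure D2:**
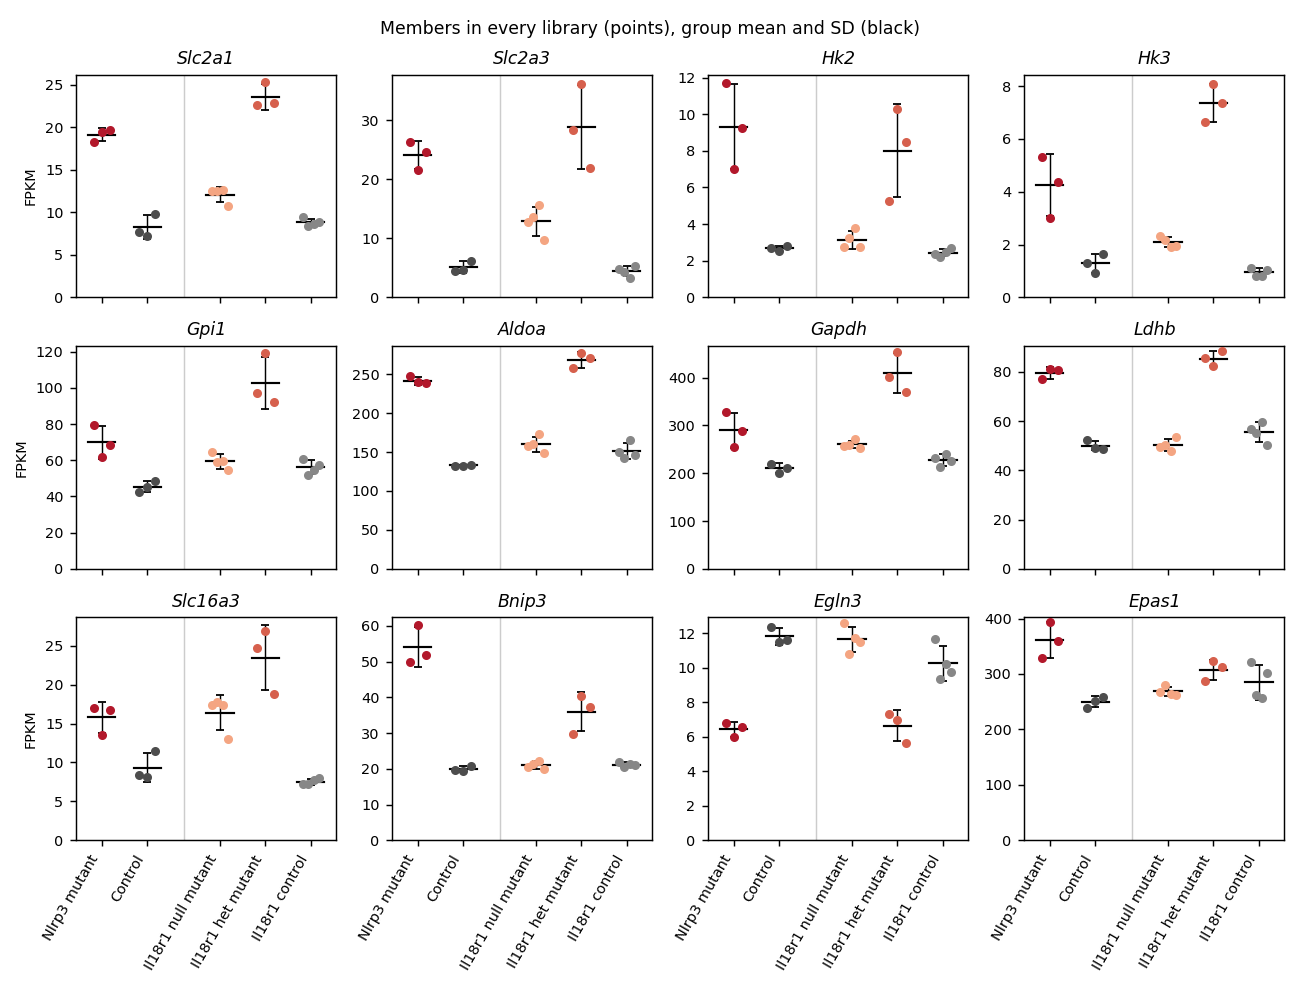
FPKM (y axis, from 0) of 12 members in every library, with the group mean and SD in black and a grey line between the experiments. Slc2a1, Slc2a3, Hk3 and Slc16a3 are above the Il18r1 control in the null mutant and higher still in the het mutant, Bnip3 and Ldhb in the null mutant sit at or below the control level, and Egln3 is lowest in the Nlrp3 mutant and the het mutant.

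Of the 4 genes that set the fate of pyruvate and lactate, Slc16a3, Ldhb and Pdk1 were higher in the Nlrp3 mutant and the het mutant, and Ldha was not called by limma in any comparison. Slc16a3 encodes MCT4, the lactate exporter of strongly glycolytic cells (chr11:120948480-120960868, plus strand). It measured 17.0, 13.5 and 16.8 FPKM in the Nlrp3 mutant, against 8.37, 8.13 and 11.5 FPKM in Control. It measured 17.4, 17.7, 17.3 and 13.0 FPKM in the null mutant and 24.7, 26.9 and 18.8 FPKM in the het mutant, against 7.22, 7.23, 7.72 and 8.01 FPKM in the control. No groups overlapped within an experiment, and null replicate 4 was the lowest of the null libraries. On the log2 scale the difference was 0.71 ± 0.14 in the Nlrp3 mutant (adjusted p = 0.0031) and 1.5 ± 0.12 in het against control (adjusted p = 1.12e-06). It was 1.01 ± 0.11 in null against control (adjusted p = 0.000315) and -0.49 ± 0.12 in null against het (adjusted p = 0.00509).

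Ldhb, the lactate dehydrogenase subunit of oxidative tissues (chr6:142490249-142507957, minus strand), measured 76.9, 81.2 and 81.0 FPKM in the Nlrp3 mutant, against 52.1, 49.3 and 48.8 FPKM in Control. It measured 49.4, 50.4, 47.7 and 53.4 FPKM in the null mutant and 85.6, 82.3 and 88.4 FPKM in the het mutant, against 57.0, 55.1, 59.8 and 50.5 FPKM in the control. The null libraries overlapped the control libraries and lay far below the het mutant. Its log2 fold change was 0.66 ± 0.05 in the Nlrp3 mutant (adjusted p = 4.06e-05) and 0.61 ± 0.06 in het against control (adjusted p = 5e-06). It was -0.14 ± 0.06 in null against control (adjusted p = 0.376) and -0.75 ± 0.06 in null against het (adjusted p = 1.71e-06). Ldha, the subunit of glycolytic tissues and a classic HIF-1 target, averaged 224 ± 26.9 FPKM in the Nlrp3 mutant and 227 ± 8.28 FPKM in Control (SD, n = 3 each), a log2 fold change of -0.02 ± 0.09 (adjusted p = 0.833). In het against control it was 0.16 ± 0.08 (adjusted p = 0.0991), and it was called higher without het replicate 3 (0.23, adjusted p = 0.0422), with only the 2 groups fitted (adjusted p = 0.0466) and in the authors' deposited table (0.17, adjusted p = 0.0220). Pdk1, a kinase that inhibits pyruvate dehydrogenase, was higher in the Nlrp3 mutant (0.43 ± 0.06, adjusted p = 0.000909) and in het against control (0.32 ± 0.05, adjusted p = 0.000328) and lower in null against het (-0.34 ± 0.05, adjusted p = 0.000273). Under equal total FPKM the last of these calls was lost (-0.15, adjusted p = 0.0573).

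The make-up of the isoforms is described for 5 steps of the pathway. Hk2 and Hk3 together held 39.0% to 48.6% of summed hexokinase FPKM in the Nlrp3 mutant, against 15.8% to 20.6% in Control. The share was 21.3% to 25.3% in the null mutant and 38.7% to 47.4% in the het mutant, against 15.3% to 16.8% in the control, with no overlap between groups. Slc2a3 held 52.6% to 59.0% of the sum of both transporters in the Nlrp3 mutant against 37.0% to 39.3% in Control. It held 47.3% to 55.4% in the null mutant and 49.0% to 58.8% in the het mutant, ranges that overlapped, against 27.6% to 37.6% in the control. Ldhb held 23.4% to 29.1% of lactate dehydrogenase FPKM in the Nlrp3 mutant against 17.5% to 18.4% in Control, and 14.7% to 19.9% in the null mutant and 23.6% to 27.1% in the het mutant, against 17.9% to 20.1% in the control. Pfkm held 29.1% to 29.8% of phosphofructokinase FPKM in the Nlrp3 mutant against 33.7% to 34.7% in Control, and 30.6% to 36.3% in the null mutant and 25.4% to 32.2% in the het mutant, against 32.6% to 40.0% in the control. Aldoc held 0.92% to 1.05% of aldolase FPKM in the Nlrp3 mutant against 1.12% to 1.15% in Control, with overlap among all 3 groups of the second experiment. All 5 shares were therefore apart between the groups of the first experiment. In the second, the null mutant was apart from the control for the transporter and hexokinase shares and overlapped it for the other 3. With 3 libraries a group no exact test of such a share could fall below p = 0.1 in the first experiment, so the shares are given as description.

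**Figure D3:**
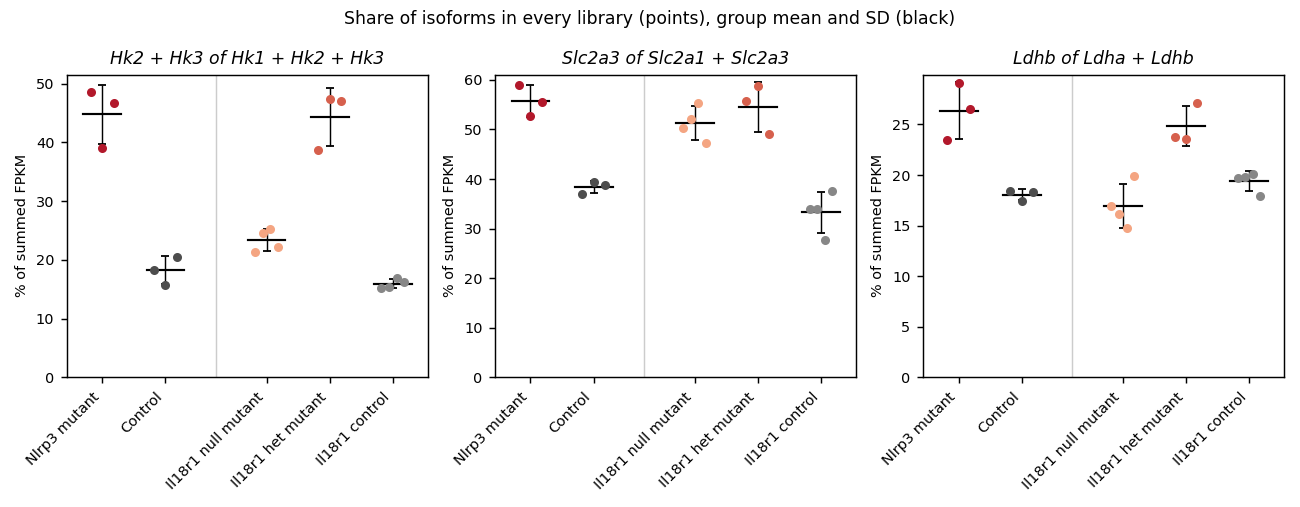
Percent of summed FPKM (y axis, from 0) held by Hk2 and Hk3 among the hexokinases, by Slc2a3 among both glucose transporters and by Ldhb among the lactate dehydrogenases, in every library, with the group mean and SD in black. The Nlrp3 mutant averages 44.8%, 55.7% and 26.4% in the 3 panels, against 18.2%, 38.4% and 18.1% in Control.

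Among the HIF subunits and oxygen sensors, the plainest difference was a lower Egln3 in the Nlrp3 mutant and the het mutant. Egln3 encodes the prolyl hydroxylase PHD3, itself a HIF target in many cells (chr12:54178981-54203860, minus strand). It measured 6.79, 5.95 and 6.54 FPKM in the Nlrp3 mutant, against 12.4, 11.5 and 11.6 FPKM in Control. It measured 12.6, 10.8, 11.7 and 11.5 FPKM in the null mutant and 7.31, 6.96 and 5.62 FPKM in the het mutant, against 11.7, 9.36, 10.2 and 9.74 FPKM in the control. The Nlrp3 mutant and het mutant libraries were all below their controls, while null and control libraries overlapped. This gave a log2 fold change of -0.79 ± 0.07 in the Nlrp3 mutant (adjusted p = 7.38e-05) and -0.56 ± 0.09 in het against control (adjusted p = 0.000235). It was 0.17 ± 0.08 in null against control (adjusted p = 0.546) and 0.73 ± 0.09 in null against het (adjusted p = 3.86e-05).

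The region before the Egln3 start is shown as that of a member that went the other way from most. It holds the searched letters at 1 position (capitals as for Hk2; RefSeq, GRCm38.p6, chr12:54203875-54204124, minus strand).
Egln3: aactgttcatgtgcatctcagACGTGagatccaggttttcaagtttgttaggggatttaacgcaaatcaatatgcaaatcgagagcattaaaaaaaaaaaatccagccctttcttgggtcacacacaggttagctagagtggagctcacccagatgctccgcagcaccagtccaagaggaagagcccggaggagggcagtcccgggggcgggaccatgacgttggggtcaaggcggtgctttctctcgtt

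Egln1, which encodes PHD2, the main oxygen sensor (chr8:124908587-124949324, minus strand), measured 28.1, 29.4 and 28.6 FPKM in the Nlrp3 mutant, against 25.8, 29.7 and 30.3 FPKM in Control. It measured 27.3, 29.0, 30.1 and 28.4 FPKM in the null mutant and 30.0, 29.0 and 29.1 FPKM in the het mutant, against 28.9, 29.5, 29.1 and 28.4 FPKM in the control. All groups overlapped within their experiment. The log2 fold changes lay between -0.03 and 0.02 with adjusted p of 0.568 to 0.963, and their sign turned under equal total FPKM in het against control (-0.14, called lower) and in null against het (0.17, called higher).

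Epas1 was the most abundant of the 36 genes in every group but the het mutant, where Gapdh passed it (chr17:86753700-86833410, plus strand). It measured 329, 394 and 360.4 FPKM in the Nlrp3 mutant, against 239, 252 and 259 FPKM in Control, with no overlap and a log2 fold change of 0.53 ± 0.08 (adjusted p = 0.000787). It measured 268, 281, 263 and 262 FPKM in the null mutant and 288, 323 and 312 FPKM in the het mutant, against 322, 262, 256 and 302 FPKM in the control. Het and control libraries overlapped, and that comparison was not called (0.11 ± 0.08, adjusted p = 0.238). Null against het fell just short (-0.19 ± 0.08, adjusted p = 0.0544) and was called lower without het replicate 1 (-0.24, adjusted p = 0.0356) and in the authors' deposited table (-0.19, adjusted p = 0.0158). Endothelial markers, 8 of 8 found, summed to 1164 to 1172 FPKM in the Nlrp3 mutant against 1371 to 1430 FPKM in Control, with 1 called higher and 5 lower in the Nlrp3 mutant, and 1 higher and 4 lower in het against control; their part in the Epas1 level was not tested.

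Hif1a was much less abundant (chr12:73901375-73947530, plus strand). It measured 30.4, 26.4 and 27.9 FPKM in the Nlrp3 mutant, against 34.2, 31.7 and 31.0 FPKM in Control. It measured 28.3, 30.7, 34.5 and 34.3 FPKM in the null mutant and 27.1, 32.7 and 23.9 FPKM in the het mutant, against 28.7, 30.5, 30.4 and 32.3 FPKM in the control. The groups were just apart in the first experiment and overlapped in the second. The log2 fold change in the Nlrp3 mutant was -0.19 ± 0.07 (adjusted p = 0.0423), and the call was lost without Control replicate 1 (adjusted p = 0.135) or 2 (0.0843) and without Nlrp3 mutant replicate 2 (0.111) or 3 (0.117). Without het replicate 2, Hif1a was called lower in het against control (-0.25, adjusted p = 0.0323) and higher in null against het (0.31, adjusted p = 0.0122), and the second was also called without null replicate 1 (0.25, adjusted p = 0.0493). With all libraries under equal total FPKM, both were called, at -0.29 (adjusted p = 0.0173) in het against control and 0.40 (adjusted p = 0.00294) in null against het. Epas1 held 91.6% to 93.7% of the FPKM of both alpha subunits in the Nlrp3 mutant, against 87.5% to 89.3% in Control, and 88.4% to 90.5% in the null mutant and 90.8% to 92.9% in the het mutant, against 89.4% to 91.8% in the Il18r1 control.

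Among the 8 other hypoxia response genes, Bnip3, Ndrg1 and P4ha2 were higher in both experiments and Adm and Ankrd37 were not called by limma in any comparison. Bnip3, a mitophagy receptor of the outer mitochondrial membrane (chr7:138890836-138909519, minus strand), measured 50.0, 60.3 and 51.8 FPKM in the Nlrp3 mutant, against 19.8, 19.3 and 20.8 FPKM in Control. It measured 20.6, 21.4, 22.2 and 19.8 FPKM in the null mutant and 29.8, 40.4 and 37.4 FPKM in the het mutant, against 22.0, 20.4, 21.2 and 21.1 FPKM in the control. Null and control libraries mixed, and the other mutant libraries stood clear above their controls. The log2 fold change was 1.39 ± 0.08 in the Nlrp3 mutant (adjusted p = 1.13e-05) and 0.72 ± 0.08 in het against control (adjusted p = 2.01e-05). It was -0.01 ± 0.08 in null against control (adjusted p = 0.984) and -0.74 ± 0.08 in null against het (adjusted p = 2.22e-05).

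Bnip3 is shown beside Adm, the gene of the vessel-dilating peptide adrenomedullin, because both are known HIF targets with several copies of the letters and only Bnip3 was called. The Bnip3 region (chr7:138909507-138909756, minus strand) holds 4 marked stretches, 1 of which is the palindrome CACGTG, and the Adm region (chr7:110627407-110627656, plus strand) holds 2; both are RefSeq, GRCm38.p6, with capitals as above.
Bnip3: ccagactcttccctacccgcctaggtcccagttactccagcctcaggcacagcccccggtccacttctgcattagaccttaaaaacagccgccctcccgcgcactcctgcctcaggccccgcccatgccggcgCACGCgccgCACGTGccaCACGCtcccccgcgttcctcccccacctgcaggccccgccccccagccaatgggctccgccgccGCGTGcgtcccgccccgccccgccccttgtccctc
Adm: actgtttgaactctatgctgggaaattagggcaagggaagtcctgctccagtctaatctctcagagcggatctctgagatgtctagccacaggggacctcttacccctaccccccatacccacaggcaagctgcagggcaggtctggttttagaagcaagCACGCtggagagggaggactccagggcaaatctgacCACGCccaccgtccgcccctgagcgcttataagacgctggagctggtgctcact

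Ndrg1, a stress-responsive gene linked to lipid traffic and differentiation (chr15:66929318-66969640, minus strand), measured 17.5, 20.2 and 20.2 FPKM in the Nlrp3 mutant, against 10.3, 9.96 and 10.9 FPKM in Control. It measured 11.7, 12.2, 13.9 and 11.9 FPKM in the null mutant and 13.1, 17.2 and 16.9 FPKM in the het mutant, against 11.4, 10.8, 10.7 and 12.1 FPKM in the control. The first experiment separated the groups widely, and in the second het replicate 1 lay within the null range. On the log2 scale the difference was 0.83 ± 0.07 in the Nlrp3 mutant (adjusted p = 7.09e-05) and 0.44 ± 0.09 in het against control (adjusted p = 0.00131). Null against het was called lower (-0.31 ± 0.09, adjusted p = 0.0122), but not without het replicate 2 (adjusted p = 0.0604) or 3 (0.0551).

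P4ha2, a subunit of the collagen prolyl hydroxylase (chr11:54100095-54131665, plus strand), measured 13.9, 14.8 and 14.6 FPKM in the Nlrp3 mutant, against 8.45, 7.64 and 7.14 FPKM in Control. It measured 6.48, 7.37, 7.19 and 6.74 FPKM in the null mutant and 11.0, 12.9 and 12.7 FPKM in the het mutant, against 7.05, 6.73, 6.85 and 6.83 FPKM in the control. Null and control libraries overlapped, and all het libraries were above them. Its log2 fold change was 0.82 ± 0.07 in the Nlrp3 mutant (adjusted p = 6.81e-05) and 0.74 ± 0.06 in het against control (adjusted p = 1.83e-06). It was -0.73 ± 0.06 in null against het (adjusted p = 3.38e-06).

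P4ha1, the sister subunit of P4ha2, was called higher in the Nlrp3 mutant (0.18 ± 0.06, adjusted p = 0.0392), a call lost without any of the 3 Control libraries or without Nlrp3 mutant replicate 1 or 3 (adjusted p = 0.0782 to 0.118); in null against het it was called lower without null replicate 3 (-0.19, adjusted p = 0.0454), and the authors' deposited table called it higher in het against control (0.17, adjusted p = 0.0405). Kdm3a, a histone demethylase, was called higher in the Nlrp3 mutant (0.29 ± 0.09, adjusted p = 0.0233), but not without Control replicate 2 (adjusted p = 0.0799) or 3 (0.0711) or without Nlrp3 mutant replicate 2 (0.0589). Under equal total FPKM Kdm3a was called lower in het against control (-0.21, adjusted p = 0.0127) and higher in null against het (0.22, adjusted p = 0.00941). Higd1a, a small mitochondrial protein, was called higher in het against control (0.23 ± 0.07, adjusted p = 0.0155; 0.0540 without het replicate 3) and lower in null against het (-0.19 ± 0.07, adjusted p = 0.0414). The second call was lost without any of the 3 het libraries or without null replicate 1 or 4 (adjusted p = 0.0517 to 0.119), it was not made in the authors' deposited table (adjusted p = 0.279), and under equal total FPKM the direction turned (0.0090). Adm averaged 7.23 ± 1.64 FPKM in the Nlrp3 mutant and 7.02 ± 1.71 FPKM in Control (SD, n = 3 each), with a log2 fold change of 0.04 ± 0.19 (adjusted p = 0.879). Ankrd37, a small ankyrin-repeat gene, spread widely within groups and was called higher in null against het without null replicate 4 (0.53, adjusted p = 0.0226) and in the authors' deposited table (0.62, adjusted p = 0.0137).

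Across the 2 experiments, 15 members were called higher in both the Nlrp3 mutant and the het mutant against their own controls, where the background over genes tested in both was 20.5%, and 2, Pfkm and Egln3, were called lower in both, where it was 21%. The 15 were Slc2a1, Slc2a3, Hk2, Hk3, Gpi1, Pfkfb4, Aldoa, Aldoc, Gapdh, Ldhb, Pdk1, Slc16a3, Bnip3, Ndrg1 and P4ha2. No member was called in opposite directions, against 0.357% of all genes. Pfkfb3, Epas1, P4ha1 and Kdm3a were called higher and Hif1a lower in the first experiment but not in the second, and Tpi1, Pgk1, Eno1, Pkm and Higd1a were called higher in the second but not in the first. The tables were normalized separately, so whether these effects differ between the experiments was not tested. The log2 fold changes of the 36 genes in the 2 comparisons, which share no library, correlated with Pearson's r = 0.873, beside 0.872 for all 13443 genes tested in both. This is a description across genes, which are not independent replicates.

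**Figure D4:**
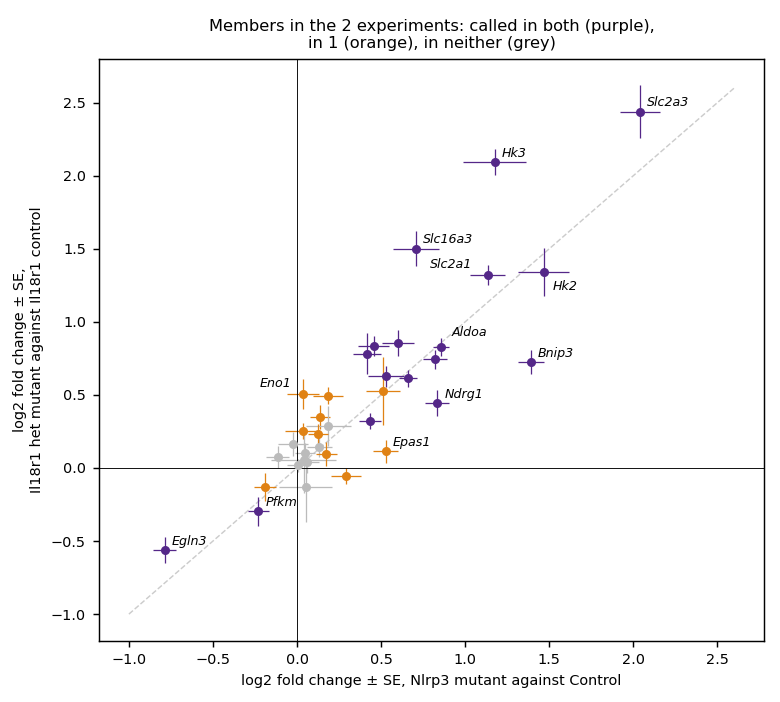
Log2 fold change with its standard error of the 36 genes in the Nlrp3 mutant against Control (x axis) and in the Il18r1 het mutant against the Il18r1 control (y axis), both on the log2(FPKM + 1) scale. Purple points were called in both (17 genes), orange points in 1 (10 genes) and grey points in neither (9 genes); the dashed line marks equal values. Hk3 and Slc16a3 lie above the line, Bnip3, Ndrg1 and Epas1 below it.

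The null mutant did not sit in the same place for all members. Every null library lay above every control library and below every het library for 8 of the 36 genes (Slc2a1, Slc2a3, Hk2, Hk3, Pfkfb4, Gapdh, Pkm and Slc16a3), a pattern that 3.16% of all genes showed. For Gpi1, Aldoa, Ldhb, Pdk1, Bnip3 and P4ha2, which were likewise higher in the het mutant, null and control libraries overlapped. Of the 8 genes, limma called 4 in null against control, which are 2 glucose transporters, the myeloid hexokinase and the lactate exporter, and the authors' deposited table called all 8. The neutrophil marker sum of the null mutant also lay between the other groups, as did the interstitial macrophage and monocyte sum and, with the null mutant below the control, the B cell sum (4 of 4 found; 19.9 to 30.0 FPKM in the null mutant and 6.51 to 8.33 FPKM in the het mutant, against 32.5 to 43.2 FPKM in the control). Their part in these levels was not tested. With only the 2 null libraries that lack Xist, the comparison with the control, whose libraries lack it too, again called 4 genes higher and 0 lower. With only the 2 null libraries that have Xist, null against het, which then compares libraries that all have it, called 1 higher and 19 lower.

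Neighbouring pathways are described through 6 lists of other genes. Their counts stand beside the shares of all genes already given: 28% were called higher and 27.6% lower in the Nlrp3 mutant, and 27.3% and 28.9% for het against control. A list's count near those shares is no result about the list. Of 33 other genes of glycolysis and sugar entry, 19 were tested in the first experiment, of which 8 were called higher and 3 lower in the Nlrp3 mutant, with a median log2 fold change of 0.32. In null against control, 1 of 22 tested (Slc2a6) was called higher and 0 lower, where 1.87% of all genes were called higher. Bpgm, which makes 2,3-bisphosphoglycerate in red cells, averaged 46.0 ± 9.55 FPKM in the Nlrp3 mutant and 114 ± 4.59 FPKM in Control (SD, n = 3 each), a log2 fold change of -1.31 ± 0.14 (adjusted p = 0.00015). Erythroid markers, 6 of 8 found, summed to 540 to 1429 FPKM in the Nlrp3 mutant against 3039 to 3525 FPKM in Control, with Hba-a2 at 0 in all Control libraries, and their part in the Bpgm level was not tested. Hkdc1, a hexokinase-like enzyme of epithelium, was higher (1.22 ± 0.09, adjusted p = 3.04e-05), as was the transporter Slc2a12 (0.89 ± 0.10, adjusted p = 0.000207).

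Of 13 genes of pyruvate entry into mitochondria, all tested, 6 were called higher and 0 lower in the Nlrp3 mutant, with a median of 0.18, and 4 higher and 0 lower in het against control, with a median of -0.0012. Pdk4, the fasting-induced counterpart of Pdk1, averaged 25.8 ± 2.27 FPKM in the Nlrp3 mutant and 2.62 ± 0.226 FPKM in Control (SD, n = 3 each), a log2 fold change of 2.88 ± 0.08 (adjusted p = 1e-06). It averaged 2.29 ± 0.751 FPKM in the null mutant (n = 4) and 12.3 ± 5.52 FPKM in the het mutant (n = 3), against 2.37 ± 0.479 FPKM in the control (SD, n = 4). Null against control gave a log2 fold change of -0.05 ± 0.24 (adjusted p = 0.977). Pcx, pyruvate carboxylase, was higher in the Nlrp3 mutant (1.02 ± 0.07, adjusted p = 2.08e-05), and Pdk2 less so (0.38 ± 0.07, adjusted p = 0.00184). In het against control Pcx was again higher (1.18 ± 0.07, adjusted p = 1.05e-07), but Pdk2 was not called (-0.097 ± 0.093, adjusted p = 0.396).

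Of 11 pentose phosphate genes, 4 were called higher and 1 lower in the Nlrp3 mutant (median 0.13) and 5 higher and 0 lower in het against control (median 0.27). G6pdx, the entry enzyme, averaged 38.3 ± 4.41 FPKM in the Nlrp3 mutant and 16.2 ± 0.905 FPKM in Control (SD, n = 3 each), a log2 fold change of 1.19 ± 0.09 (adjusted p = 3.47e-05). The other 2 NADPH-making dehydrogenases of the list, H6pd (0.72 ± 0.06, adjusted p = 6.16e-05) and Pgd (0.63 ± 0.05, adjusted p = 4.32e-05), were higher too. Of 15 glycogen genes, 14 were tested, with 5 higher and 4 lower (median 0.12). Pygl, the glycogen phosphorylase of liver and leukocytes, averaged 58.2 ± 7.09 FPKM in the Nlrp3 mutant and 20.6 ± 3.54 FPKM in Control (SD, n = 3 each; 1.46 ± 0.13, adjusted p = 7.43e-05), and Pygm, that of muscle, averaged 9.84 ± 1.31 FPKM in the Nlrp3 mutant and 14.9 ± 0.824 FPKM in Control (-0.56 ± 0.10, adjusted p = 0.00176). Pgm2, a sugar phosphate mutase, was higher (0.58 ± 0.07, adjusted p = 0.000252). In null against control, 1 of the 14 glycogen genes was called higher and 0 lower, where 1.87% of all genes were called higher. This was Pygl (0.63 ± 0.12, adjusted p = 0.0175), at a mean of 22.4 FPKM in the null mutant and 14.1 FPKM in the control.

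Of 14 other regulators of the HIF pathway, 3 were called higher and 4 lower in the Nlrp3 mutant (median -0.067), and 2 higher and 6 lower in het against control (median -0.12), beside the same 27.6% and 28.9% of all genes lower. Hif3a, another alpha subunit whose short forms restrain the others, averaged 18.2 ± 7.11 FPKM in the Nlrp3 mutant and 1.44 ± 0.333 FPKM in Control (SD, n = 3 each), a log2 fold change of 2.92 ± 0.25 (adjusted p = 6.63e-05). It averaged 0.798 ± 0.103 FPKM in the null mutant (n = 4) and 10.9 ± 5.96 FPKM in the het mutant (n = 3), against 0.781 ± 0.133 FPKM in the control (SD, n = 4). Null against control gave a log2 fold change of 0.02 ± 0.27 (adjusted p = 0.993). Arnt2, a partner subunit, was lower in the Nlrp3 mutant (-1.17 ± 0.10, adjusted p = 5.56e-05), as was the cytokine Mif (-0.61 ± 0.10, adjusted p = 0.00167).

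Of 48 other known HIF target genes, 46 were tested, of which 19 were called higher and 7 lower in the Nlrp3 mutant (median 0.18), 19 higher and 13 lower in het against control (median 0.012), 0 either way in null against control, where 1.97% of all genes were called, and 11 higher and 15 lower in null against het (median -0.0089), where 26.8% of all genes were called higher and 26.5% lower. Lox, which crosslinks collagen and elastin, averaged 182 ± 15.8 FPKM in the Nlrp3 mutant and 45.7 ± 3.54 FPKM in Control (SD, n = 3 each; 1.97 ± 0.08, adjusted p = 5.01e-06). Selenbp1, a selenium-binding protein, averaged 380.5 ± 62.8 FPKM in the Nlrp3 mutant and 106 ± 15.1 FPKM in Control (SD, n = 3 each; 1.83 ± 0.14, adjusted p = 3.45e-05). Anln, an actin-binding protein of cell division, averaged 2.68 ± 0.297 FPKM in the Nlrp3 mutant and 10.3 ± 1.30 FPKM in Control (SD, n = 3 each; -1.61 ± 0.10, adjusted p = 2.07e-05), alongside proliferation markers, of which 6 of 6 were called lower; their part in the Anln level was not tested.

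The letters ACGTG or GCGTG, on either strand, were found in the 250 bases before at least 1 listed start of 30 of the 33 members with a RefSeq entry (90.9%), beside 41.5% of all 27025 genes with an entry. Among starts instead of genes the share was 79.2% of 48 starts of members and 38.6% of all starts. Among the members called higher in both experiments it was 12 of 13 with an entry (92.3%). The 3 members without the letters were Gpi1, which was called higher in both experiments, Tpi1 and Eno2. Slc2a3, Epas1 and Ndrg1 have no entry. A match of 5 letters is a description of these windows and not a binding site. The members were listed as glycolytic and hypoxia response genes, and all genes were not matched to them for expression level or base content. The difference in shares is therefore no result about these libraries.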

How the data were processed

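Bulk lung RNA-seq of 17 libraries was analysed from 2 deposited gene tables, 6 libraries for the Nlrp3 experiment and 11 for the Il18r1 experiment. Reads were aligned with STAR to GRCm38 (mm10), per the submitters' processing notes, and RNA was prepared with a stranded mRNA kit, per the labels' protocols. Which quantifier and annotation were used is not given in the sources used here. No unit is named in the deposited tables: their values were read as FPKM made by the authors, because they are not whole numbers, have no fixed sum and stand under a Cufflinks-style header. Read totals are therefore unknown, and only relative depth was estimated from the spacing of low values. The authors' deposited comparison tables, for the second experiment only, hold a mean normalized count (a signal averaged over libraries), log2 fold changes with standard errors, a test score, and p-values with adjusted p-values, per the file headers.

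Of 24354 lines in each FPKM table, 27 whose gene names had become dates were left out and 24327 were kept. A gene was tested if 3 or more libraries reached 1 FPKM, with limma 3.58.1 in R 4.3.3 on log2(FPKM + 1), with a mean-variance trend and Benjamini-Hochberg adjustment over all tested genes (13549 and 13724), at a threshold of 0.05. All fold changes are on that scale, which understates the change of low genes. Every adjusted p in the text comes from limma unless the authors' table is named. Each experiment was fitted alone, the second with all 11 libraries. The script was tested on simulated data before use. Summaries were made in Python 3.11.15 with pandas 2.3.3 and numpy 2.4.6, and figures with matplotlib 3.10.9.

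Values in every library are given for Hif1a, Epas1, Egln1 and Egln3 and for members that passed with a log2 fold change of at least 0.5 in size and a mean of at least 5 FPKM in either group. From each of the 6 other pathway lists, the 3 passing genes with the largest log2 fold change in size in the Nlrp3 mutant are named. Pfkm, Hk1, Pkm and other members whose call depended on 1 library are given as well. The members, the lists and the markers were chosen with earlier results of these data known. Alternatives were another rescaling, equal total FPKM, a pseudocount of 0.1, no filter on low values, a filter at a mean of 5 FPKM, a replicate block, robust fitting with weights per library, fits of only the groups compared, each library left out, a fold minimum, the authors' adjusted p-values and 3 treatments of sex.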

Additional observations from a re-analysis of the deposited data

Results flagged for a closer look

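In 4 of 72 sets of 4 libraries, 1 library stood apart from the other 3 by Dixon's test at the 95% level, where about 1 in 20, or 3.6 sets, would by chance. Slc2a1 was 10.75 FPKM in Il18r1 null mutant replicate 4 and 12.4 to 12.6 FPKM in the other 3 null libraries. Slc16a3 was 13.01 FPKM in the same library and 17.3 to 17.7 FPKM in the others, and both values still lay above every Il18r1 control library. Hk1 was 18.67 FPKM in null replicate 1 and 16.6 to 16.8 FPKM in the others. Pgam1 was 18.95 FPKM in Il18r1 control replicate 2 and 17.7 to 17.8 FPKM in the others.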

How the results depend on the processing

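Over 144 results, each a member in 1 comparison, 2380 alternative values kept their direction and their side of the threshold, 76 lost the call, 42 gained one and 4 changed direction. The 4 all arose under equal total FPKM: Egln1 in het against control (-0.139) and in null against het (0.1697), and Pgk1 (0.06074) and Higd1a (0.009016) in null against het. The same scaling gave 5 members lower in het against control, beside 6482 of all 13727 genes. In null against het it gave 5 higher and 13 lower, beside 6961 and 2037 of 13727 genes. With a log2 fold change of at least 0.5 required, 1 member was lower in the Nlrp3 mutant, 1 in het against control and 11 in null against het, because smaller changes no longer count. The authors' adjusted p-values called 8 higher in null against control and 2 higher in null against het; the cause was not tested.

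With each library left out in turn, the Nlrp3 mutant had 17 to 21 members higher and 1 to 4 lower, het against control 20 to 21 higher and 1 to 2 lower, null against control 4 to 5 higher and 0 lower, and null against het 1 to 2 higher and 17 to 21 lower. Same-numbered libraries did not deviate together throughout (correlations of -0.10 to 0.27), so the numbers were not taken to pair the samples. The replicate block gave 18 higher and 3 lower in the Nlrp3 mutant, 20 and 2 in het against control, 4 and 0 in null against control, and 1 and 19 in null against het. A sex term, which can be fitted only because the null mutant holds both sexes, gave 4 and 0 in null against control and 1 and 18 in null against het. Read depth is unknown, so counting error could not be set beside these values, and 3 or 4 libraries a group limit what small differences can be seen.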
